A study of Rattus norvegicus with 31 samples.

Results

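The genes of mitochondrial complex I were described in the left ventricle of untreated, alcohol- and drug-naive male rats from the HXB/BXH recombinant inbred panel and both of its progenitors. Members were all rows of the RefSeq gene table whose symbol is Nduf followed by a, ab, b, c, s, v or af and a number, which gave 45 of 19100 genes: 36 subunits, 8 assembly factors (Ndufaf) and Ndufa4. The progenitors were compared in a second table, of genes assembled from the reads, where 33 of the 45 symbols had a gene of their own among 46063 (25 subunits, 7 assembly factors and Ndufa4). Of the others, 7 were only in an assembled gene that also carries a neighbour's name (Ndufa13, Ndufa5, Ndufb5, Ndufc1, Ndufc2, Ndufs1 and Ndufs5), and 5 had none (Ndufa11, Ndufa7, Ndufaf8, Ndufb1 and Ndufs3). Ndufs6 and the subunits encoded by mitochondrial DNA are not members.

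The progenitor groups were BN-Lx/Cub, a Brown Norway strain, with 4 animals, and SHR/OlaIpcv, the spontaneously hypertensive rat, with 4 animals, all sequenced in batch 1. SHR animal 4 was sequenced again in batches 2 and 3, so the 6 SHR libraries come from 4 animals. The recombinant strains descend from reciprocal crosses of both progenitors: 12 HXB strains (Ipcv) and 9 BXH strains (Cub), 1 library each here, of which 3 HXB and 3 BXH strains were in batch 2 and 9 HXB and 6 BXH strains in batch 3. Each strain is inbred, so a strain with 1 library has no replicate, and the colony suffix follows the family, so family and colony cannot be told apart. No source used here says whether animals shared a litter or a dissection day, and p-values measure the spread between these libraries only. Ages are not given.

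Complex I oxidizes NADH in the mitochondrial matrix, passes its electrons through a chain of iron-sulfur clusters to ubiquinone, and pumps protons across the inner membrane. Its matrix arm holds the core subunits that bind NADH, flavin and the clusters, its membrane arm holds the proton channels, whose core is encoded in mitochondrial DNA, and a shell of accessory subunits surrounds both. Assembly factors build modules of the complex and are not part of the finished enzyme. Cardiac muscle is among the tissues richest in mitochondria, and Ndufa4, named as a complex I subunit, is now counted with complex IV.

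The deposited values are on a log2 scale, with no counts, so the depth behind them is unknown and no counting interval is given. Ventricular cardiomyocyte markers were high throughout: 7 of 9 were measured in the assembled table, and their summed level was 21.89 to 22.08 (log2) in BN-Lx and 21.91 to 22.04 in SHR. Skeletal muscle markers were at 2.92 to 4.53 in the same libraries. The mean level of spiked-in control RNAs did not overlap between the progenitors, at 6.95 to 7.85 in BN-Lx and 6.37 to 6.82 in SHR.

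Levels were first compared between members per kilobase of transcript, on the log2 scale, in the 8 progenitor libraries. Subunits had a median level of 13.38 (n = 32), against 8.99 for the 7 assembly factors and 7.38 for all 13719 symbols with a length. The highest members were Ndufb9, an accessory subunit of the membrane arm (14.84 ± 0.23, SD, n = 8), Ndufa4 (14.58 ± 0.27) and Ndufb8, another membrane arm subunit (14.45 ± 0.32). The libraries of these 3 overlapped, and their order is within the spread. The lowest were Ndufaf7, a methyltransferase (8.08 ± 0.22), Ndufaf5, which hydroxylates Ndufs7 (8.40 ± 0.28), and Ndufaf2, a paralogue of Ndufa12 (8.88 ± 0.20).

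By mean level, all 32 measured subunits stood above all 7 assembly factors. The lowest subunit was Ndufs4, an accessory subunit of the NADH-binding module (11.85 ± 0.23), and the highest assembly factor was Ndufaf3, which acts with Ndufaf4 on the ubiquinone module (10.68 ± 0.23). Ndufs4 stood at the 96.4th percentile of all named genes per kilobase, and Ndufaf7 at the 62.4th. Ndufs5 had the largest spread of all members (12.20 ± 1.14), with a mean of 13.26 in BN-Lx and 11.14 in SHR.

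**Figure D1:**
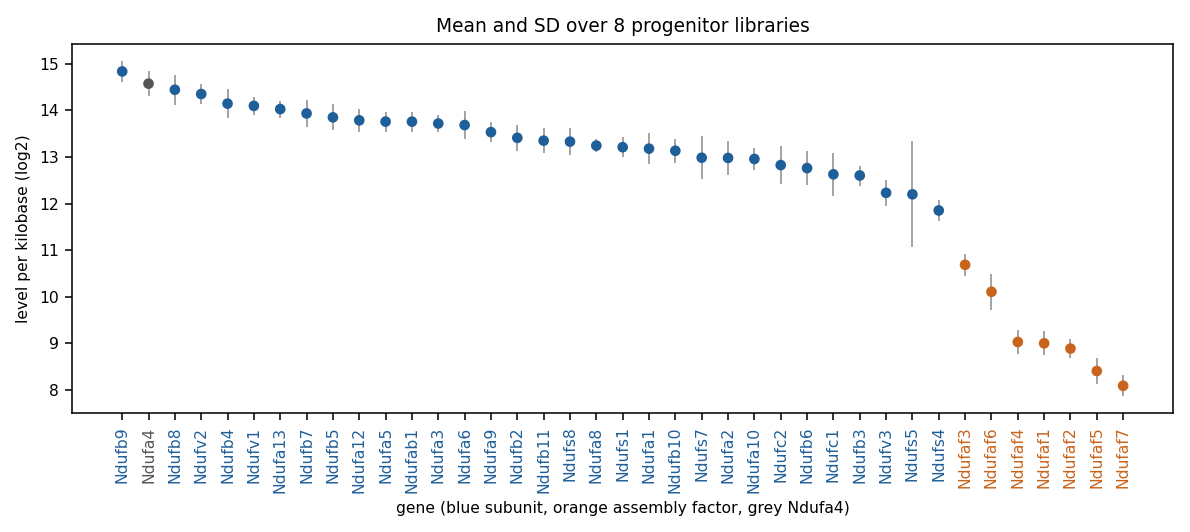
Level per kilobase (log2, vertical axis) of 39 complex I genes with an assembled transcript, ordered from highest to lowest; points are means and bars SDs over 4 BN-Lx and 4 SHR libraries. The subunits (blue) lie between 11.85 and 14.84 and the assembly factors (orange) between 8.08 and 10.68, and Ndufs5 has the longest bar.

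Promoter sequence was available for 41 of the 45 members, from RefSeq on the GRCr8 assembly, which differs from the build of the deposited files (rn7); among those without an entry were Ndufa8, Ndufaf6 and Ndufb9. Windows from 250 bases before to 50 bases after the annotated start were searched on both strands for 4 letter patterns tied to factors of mitochondrial gene expression: AAGATGGCG (YY1), GCGCATGCG (NRF1, whose matches on the opposite strands overlap), CCGGAAGTG (GABPA) and TCAAGGTCA (ERR). The YY1 letters were in 7 members (Ndufa2, Ndufa6, Ndufa9, Ndufaf8, Ndufb8, Ndufs4 and Ndufs7), against 1.73% of all 33469 promoters. In all 7 they lay on the gene's own strand, starting 2 to 26 bases after the annotated start. The NRF1 letters were in 3 members (Ndufa11, Ndufaf4 and Ndufaf5), against 1.52% of promoters. The GABPA and ERR letters were in 0 members, against 1.89% and 0.433% of promoters. The promoters of 3 genes with the YY1 letters and a pair with the NRF1 letters are shown because the results return to these genes; capitals mark the pattern, and each runs 5′ to 3′ on the gene's strand.
Ndufs7, chr7:10110469-10110548, minus strand: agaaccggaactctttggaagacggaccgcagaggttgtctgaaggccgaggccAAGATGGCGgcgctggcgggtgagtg
Ndufb8, chr1:253362907-253362986, minus strand: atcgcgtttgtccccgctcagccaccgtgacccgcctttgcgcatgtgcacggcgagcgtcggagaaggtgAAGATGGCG
Ndufs4, chr2:47794885-47794964, minus strand: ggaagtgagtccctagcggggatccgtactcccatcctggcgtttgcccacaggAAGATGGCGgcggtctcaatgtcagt
Ndufaf4, chr5:43401605-43401684, plus strand: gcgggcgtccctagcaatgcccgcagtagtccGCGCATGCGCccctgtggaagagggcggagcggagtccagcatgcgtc
Ndufa11, chr9:1637484-1637563, plus strand: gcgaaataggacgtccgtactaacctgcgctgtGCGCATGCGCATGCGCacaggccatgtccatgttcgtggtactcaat
The first 3 windows run from 50 bases before the start to 30 bases after it. In the 2 with the NRF1 letters the pattern lies farther upstream, and Ndufa11 carries overlapping copies of it.

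The first comparison asked how complex I genes differ between the hypertensive and the normotensive progenitor. On the deposited scale 14 of 33 members were lower in SHR and 0 were higher, a direction that turned when libraries were scaled to their spike-ins (limma, adjusted p under 0.05 over all assembled genes). The background was 14.3% of all assembled genes called, 6.95% lower and 7.38% higher; among 7746 named genes with a mean over 8, a range closer to that of the members, 22.4% were called, 10.1% lower and 12.3% higher. Subunits made up 11 of the 14, out of 25 measured, and had a median difference of -0.24 against 0.01 for all genes. Assembly factors made up 2 out of 7, with a median of -0.24, and Ndufa4 was the other. SHR animals lay wholly below BN-Lx animals in 15 of the 33 members, against 9.96% of all genes, and 30 of the 33 differences were negative.

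Core subunits of the matrix arm were lower in SHR in 5 of 5 measured. Ndufs7, which holds the last iron-sulfur cluster before ubiquinone, was at 13.20, 12.82, 13.06 and 12.94 in the BN-Lx animals and 12.59, 12.49, 12.11 and 12.50 in the SHR animals. All SHR animals were below all BN-Lx animals, and SHR animal 3 was the lowest. The difference was -0.58 (SE 0.11, adjusted p = 0.0034). Ndufs8, which carries the clusters that feed Ndufs7, was at 13.58, 13.29, 13.37 and 13.37 in the BN-Lx animals and 13.16, 13.10, 12.95 and 12.98 in the SHR animals. The strains did not overlap, and the difference was -0.36 (SE 0.08, adjusted p = 0.0096). Ndufv2, a cluster protein of the NADH-binding module, differed by -0.27 (SE 0.06, adjusted p = 0.0144), and its partner Ndufv1, which binds NADH and flavin, by -0.24 (SE 0.07, adjusted p = 0.0382). BN-Lx animals ran from 14.23 to 14.37 for Ndufv2 and SHR animals from 13.93 to 14.11. Without SHR animal 4 the adjusted p of Ndufv2 was 0.0555.

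Accessory subunits of the membrane arm were lower in 5 of 13 measured and those of the matrix arm in 1 of 6. Ndufb8 had the smallest p of all members. It was at 14.18, 14.08, 14.06 and 14.12 in the BN-Lx animals and 13.81, 13.63, 13.57 and 13.65 in the SHR animals, with a wide gap between the strains. The difference was -0.45 (SE 0.07, adjusted p = 0.000794). Ndufb4, also of the distal membrane arm, was at 13.42, 13.18, 13.29 and 13.19 in the BN-Lx animals and 12.99, 12.88, 12.89 and 12.69 in the SHR animals. No SHR animal reached a BN-Lx animal, and the difference was -0.41 (SE 0.08, adjusted p = 0.005). The annotation names 11 copies of Ndufb4, more than for any other member, so reads may be split between them. Ndufb2 differed by -0.31 (SE 0.07, adjusted p = 0.00995) and Ndufb6 by -0.33 (SE 0.07, adjusted p = 0.0114), with SHR below BN-Lx in every animal for both. Ndufa1, an X-linked subunit of the membrane arm, differed by -0.38 (SE 0.10, adjusted p = 0.0205). It missed the threshold without BN-Lx animal 1 or 3 and without SHR animal 3 or 4, with adjusted p from 0.0597 to 0.0645.

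Among accessory subunits of the matrix arm, Ndufa2, a thioredoxin-fold protein, was at 12.62, 12.20, 12.50 and 12.31 in the BN-Lx animals and 12.15, 12.06, 11.81 and 11.92 in the SHR animals. The strains did not overlap, and the difference was -0.42 (SE 0.10, adjusted p = 0.0154). The other 5 did not pass, with differences from -0.31 for Ndufa6, where the strains overlapped, to -0.18 for Ndufa12. Ndufab1, the mitochondrial acyl carrier protein, was at 13.002, 13.47, 13.23 and 13.47 in the BN-Lx animals and 13.29, 13.08, 13.13 and 13.31 in the SHR animals, fully overlapping (adjusted p = 0.609). Ndufa8 and Ndufb11 had small positive differences, 0.04 and 0.06, that did not pass. Ndufa4 was lower, with a difference of -0.31 (SE 0.09, adjusted p = 0.0385), with SHR animals at 13.86 to 14.09 and BN-Lx animals at 14.10 to 14.46.

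**Figure D2:**
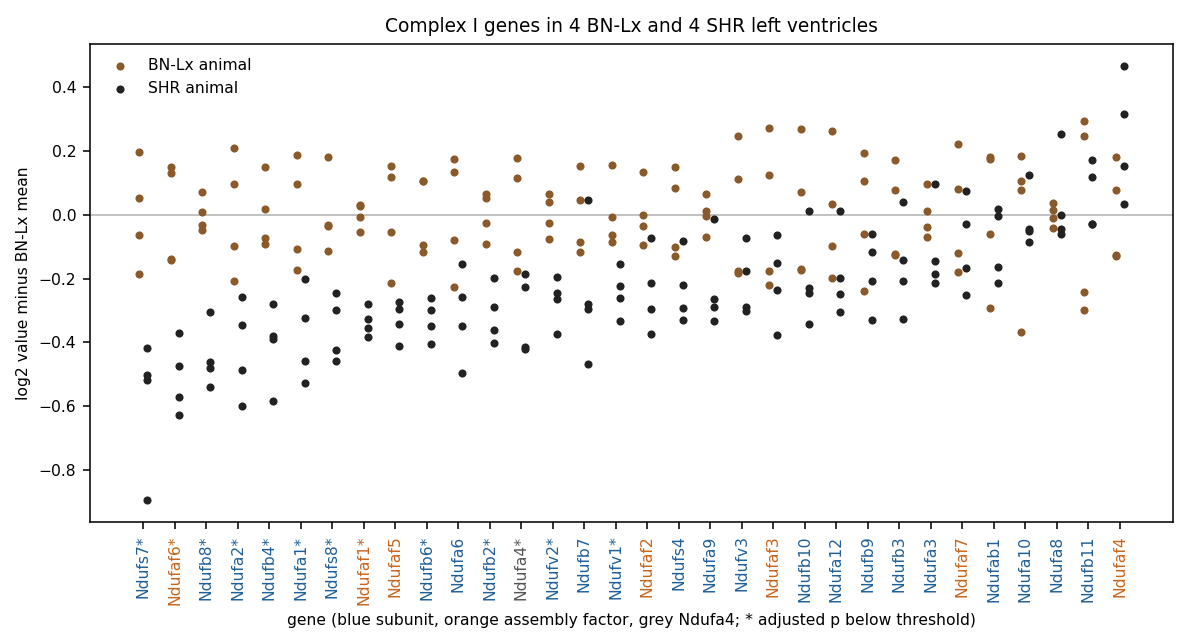
Log2 value of each BN-Lx (brown) and SHR (black) animal minus the BN-Lx mean, for 32 complex I genes with an assembled gene of their own, ordered by difference (subunits blue, assembly factors orange, Ndufa4 grey, * for an adjusted p under 0.05). SHR animals lie wholly below BN-Lx animals for 14 of these genes on the deposited scale, and scaling to the spike-ins turns the median subunit difference from -0.24 to 0.43.

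The assembly factors differed among themselves. Ndufaf6, required for an early step of the membrane arm, was at 10.22, 9.93, 10.20 and 9.93 in the BN-Lx animals and 9.70, 9.44, 9.50 and 9.59 in the SHR animals. The strains did not overlap, and the difference was -0.51 (SE 0.10, adjusted p = 0.00433). Ndufaf1, a member of the complex that builds the membrane arm, was at 10.47, 10.43, 10.47 and 10.39 in the BN-Lx animals and 10.16, 10.06, 10.11 and 10.09 in the SHR animals, the tightest replicates of the 7. Its difference was -0.34 (SE 0.07, adjusted p = 0.00718). Ndufaf5 was at 8.97, 8.63, 8.999 and 8.79 in the BN-Lx animals and 8.57, 8.55, 8.505 and 8.43 in the SHR animals. Every SHR animal was below every BN-Lx animal, but the difference of -0.33 (SE 0.10, adjusted p = 0.0511) missed the threshold. It passed without BN-Lx animal 2 (adjusted p = 0.0245), with quantile normalization (adjusted p = 0.0368) and with low rows left out (adjusted p = 0.0334). In 7 of the 8 fits that left out 1 animal it missed, with adjusted p up to 0.135. It also missed with the replicate number as a block (0.0765), without the intensity trend (0.136) and with the recombinant strains as further groups (0.0819). With the short-minus-long covariate described below, its adjusted p was 0.331. Ndufaf4 was at 10.04, 9.84, 10.15 and 9.84 in the BN-Lx animals and 10.43, 10.28, 10.12 and 9.9997 in the SHR animals, the only assembly factor with a positive difference, 0.24 (SE 0.11, adjusted p = 0.163), and the strains overlapped. Ndufaf2 (-0.24, SE 0.10, adjusted p = 0.135), Ndufaf3 (-0.21, SE 0.11, adjusted p = 0.254) and Ndufaf7 (-0.09, SE 0.11, adjusted p = 0.623) did not pass, and their strains overlapped.

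Counting also the genes that carry a neighbour's name, 19 of 40 were lower, but the value of such a gene takes in the neighbour's transcripts too. The count depended on the fit. Without the intensity trend in the variance 3 of 33 members were lower, against 4911 of 46063 genes called in either direction. With the recombinant strains as further groups 7 were lower, against 3916 genes called. After scaling to the spike-ins 5 members were called, all higher in SHR, against 18446 genes called. The median of all genes moved to 0.69 and that of subunits to 0.43. The subunit median thus stayed below that of all genes while its sign turned.

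Other measures moved with the strains beside these genes, and their part in the difference was not tested beyond a fit with 1 of them as a covariate. Members are short: taking for each symbol the length of its transcript with the highest mean level, 27 of 40 were of at most 1000 bases, with a median of 720.5 bases against 3003 for all named symbols. Some members also have long transcripts at a lower level. Among other genes with a mean level over 8 (log2), those of up to 1000 bases had a median difference of -0.15, with 18.1% called lower (n = 496), and those over 4000 bases a median of 0.08, with 7.81% called lower (n = 3139). The mean of short genes minus the mean of long genes, members left out, was 0.27 to 0.55 in BN-Lx libraries and 0.04 to 0.36 in SHR libraries. Genes of the other respiratory complexes were not left out of this measure. With that measure as a covariate 5 members were lower and 1 higher, Ndufaf4 (0.45, adjusted p = 0.0144), which had not passed without it. Of all 46063 genes, 4007 were called in that fit. Cardiomyocyte markers were lower in 2 of 7, the troponins Tnni3 (-0.47, SE 0.08, adjusted p = 0.0026) and Tnnt2 (-0.30, SE 0.08, adjusted p = 0.0247). The mean of the 7 markers was 18.57 to 18.72 in BN-Lx and 18.44 to 18.56 in SHR. Endothelial markers were higher in 4 of 6, led by Eng (0.60, SE 0.08, adjusted p = 0.000343) and Cdh5 (0.44, SE 0.07, adjusted p = 0.00134), and macrophage markers lower in 2 of 5, Cd163 (-0.65, SE 0.10, adjusted p = 0.000866) and C1qa (-0.37, SE 0.11, adjusted p = 0.0398). Fibroblast markers had 1 higher (Col1a1, 0.45, SE 0.12, adjusted p = 0.0269) and 1 lower (Dcn, -0.25, SE 0.08, adjusted p = 0.0457) of 5. Atrial markers had 1 higher (Myl7, 1.11, SE 0.31, adjusted p = 0.033) and 1 lower (Myl4, -0.97, SE 0.22, adjusted p = 0.0106) of 4, and of 2 measured skeletal muscle markers Tnni2 was lower (-1.02, SE 0.32, adjusted p = 0.0491). In these bulk samples fewer cells of a type and less RNA per cell cannot be told apart.

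Lists around complex I had the following counts in SHR against the same background. Of 7 other complex I assembly genes, 3 were lower and 1 higher. Lyrm2, which acts on the NADH-binding module, differed by -0.43 (SE 0.08, adjusted p = 0.00282), and Nubpl, which delivers iron-sulfur clusters to complex I, by -0.53 (SE 0.10, adjusted p = 0.00481). The gene that was higher was Acad9, a partner of Ndufaf1, at 11.35, 11.10, 11.16 and 11.09 in the BN-Lx animals and 11.70, 11.63, 11.43 and 11.45 in the SHR animals. The strains did not overlap, and the difference was 0.38 (SE 0.09, adjusted p = 0.0125). The third lower gene was Tmem126b, another partner of Ndufaf1 (-0.36, SE 0.09, adjusted p = 0.018). Acad9 and Tmem126b are named after their values were seen.

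In the other respiratory complexes, complex II had 1 of 2 lower (Sdhc, -0.34, SE 0.09, adjusted p = 0.0272), complex III 4 of 7, complex IV 3 of 8 and ATP synthase 5 of 12, with 0 higher in each. The genes counted include Cyc1 of complex III (means of 1.65 in BN-Lx and 2.63 in SHR), at a low level and not called. The same holds for Cox7a1 of complex IV (2.99 and 2.33) and Atp5mc2 of ATP synthase (5.37 and 5.46). Uqcrq of complex III differed by -0.73 (SE 0.07, adjusted p = 2.45e-05) and Uqcrc2 by -0.34 (SE 0.07, adjusted p = 0.00586), while Cox4i1 of complex IV differed by -0.39 (SE 0.08, adjusted p = 0.00899) and Cox6c by -0.31 (SE 0.07, adjusted p = 0.0131). For ATP synthase, Atp5pb differed by -0.42 (SE 0.07, adjusted p = 0.00221) and the catalytic subunit Atp5f1b by -0.41 (SE 0.07, adjusted p = 0.00283). Of 9 regulators of mitochondrial biogenesis, Ppara was higher (0.43, SE 0.09, adjusted p = 0.00602), Esrrb was lower (-0.36, SE 0.10, adjusted p = 0.0336), and the other 7 did not pass. Of the 7 complex I subunits in mitochondrial DNA, Mt-nd6 was the only one with an assembled gene of its own. It was at 12.18, 13.35, 12.33 and 13.18 in the BN-Lx animals and 14.32, 13.96, 14.27 and 14.01 in the SHR animals. All SHR animals were higher, with a difference of 1.38 (SE 0.22, adjusted p = 0.00122).

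The same progenitors were compared by transcript. Of 110 assembled transcripts carrying 40 of the symbols, 13 were lower and 1 was higher in SHR, against 5.53% of 91969 transcripts called, 2.81% lower and 2.72% higher. The 14 belong to 11 symbols. The median difference was -0.33, against 0.01 for all transcripts. The count changed with single libraries. It was 6, 9, 5 and 6 without BN-Lx animals 1, 2, 3 and 4. Without SHR animals 1, 2, 3 and 4 it was 12, 6, 5 and 5. The share of all transcripts called in these fits is not given here. The transcripts called in every fit that left out 1 animal were 5: 1 of Ndufs5, 2 of Ndufs1, 1 of Ndufaf6 and 1 of Ndufb8, the last with an adjusted p of up to 0.0421. The other 9 each missed the threshold in 6 to 8 of the 8 such fits. With the replicate number as a block 4 transcripts passed, those 5 without the one of Ndufaf6. In that fit 1893 of all 91969 transcripts were called.

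A few transcripts differed far more than their gene. The Ndufs1 gene, assembled together with Ino80d, differed by -0.28 (SE 0.06, adjusted p = 0.012). Ndufs1 is the largest core subunit of the matrix arm. Its transcript of 7200 bases was at 9.57, 9.54, 9.61 and 9.40 in the BN-Lx animals and 7.35, 8.10, 8.13 and 7.35 in the SHR animals, without overlap, and differed by -1.80 (SE 0.22, adjusted p = 0.00204). Its transcript of 5452 bases differed by -1.19 (SE 0.16, adjusted p = 0.00345). Ndufaf6 had a transcript of 364 bases at 8.06, 7.66, 8.01 and 7.82 in the BN-Lx animals and 6.80, 6.94, 6.75 and 6.78 in the SHR animals. No SHR animal came near a BN-Lx animal, and the difference was -1.07 (SE 0.16, adjusted p = 0.00617), with an adjusted p of 0.0607 under the block. Ndufs7 had the one transcript that was higher, of 1077 bases (1.07, SE 0.26, adjusted p = 0.0479). It was at a low level, with a mean of 5.92 in BN-Lx and 6.99 in SHR. Another of 724 bases was lower (-0.77, SE 0.17, adjusted p = 0.0356), with a mean of 12.24 in BN-Lx and 11.47 in SHR. Without SHR animal 4 their adjusted p was 0.126 and 0.094, in that order. Ndufc2 and Ndufc1, both in genes that carry a neighbour's name, each had 1 lower transcript. That of Ndufc2 (561 bases) differed by -0.67 (SE 0.14, adjusted p = 0.0264), and its adjusted p was 0.0936 under the block and 0.0788 without SHR animal 4. The one of Ndufc1 (624 bases) differed by -0.76 (SE 0.17, adjusted p = 0.0396), with 0.143 under the block and 0.102 without SHR animal 4.

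The transcript with the largest difference was the one of 588 bases of Ndufs5, an accessory subunit on the intermembrane side of the membrane arm. It is spliced from 3 exons between chr5:135974029 and 135979705 (rn7, minus strand). It was at 12.42, 12.10, 12.32 and 12.18 in the BN-Lx animals and 9.61, 9.92, 9.47 and 9.57 in the SHR animals, and the strains were far apart. The difference was -2.61 (SE 0.13, adjusted p = 1.53e-05). The assembled gene that holds it also carries the names Akirin1 and Macf1, and that gene as a whole differed by -0.18 (SE 0.07, adjusted p = 0.101).

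A copy of Ndufs5 moved the other way. Ndufs5-ps2, annotated as a pseudogene and singled out here after its values were seen, is 1 unspliced exon of 501 bases at chr2:182339344-182339844 (rn7, plus strand). Its transcript was at 7.94, 7.13, 7.16 and 3.35 in the BN-Lx animals and 11.98, 11.93, 11.87 and 11.69 in the SHR animals. All SHR animals were higher, and the assembled gene of the copy differed by 4.01 (SE 0.35, adjusted p = 8.86e-06). Values were put back on the linear scale and summed over 3 Ndufs5 transcripts and the copy, an approximation for values deposited on a log scale. The copy then held 0.187% to 3.60% of the sum in BN-Lx animals and 71.1% to 75.1% in SHR animals. The summed level of both was 12.39 to 12.73 in BN-Lx and 12.14 to 12.43 in SHR, and these ranges overlapped, with a difference of -0.22. No test was made of these sums, which were chosen after the values were seen. A gene and its unspliced copy can share reads, so the division of reads between Ndufs5 and its copy is uncertain. Other members have copies too: 23 of 45 have a named copy in the annotation, and 20 an annotated pseudogene.

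The recombinant strains gave Ndufs5 again, in other libraries. In the RefSeq table Ndufs5 was at 11.26 to 11.71 in 11 strains (7 HXB and 4 BXH) and at 12.05 to 12.63 in the other 10 (5 HXB and 5 BXH). The strains were divided at the widest gap in this level, so by construction none lies in between. Both batches held strains of either kind. In the assembled table the 11 strains had a copy share of 49.0% to 66.0% and the 10 strains 0.272% to 10.1%. The strains were sorted by this level, so the shares are given as a description with no test. The sum of Ndufs5 and the copy overlapped, at 11.88 to 13.07 in the 11 strains and 11.77 to 12.80 in the 10.

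**Figure D3:**
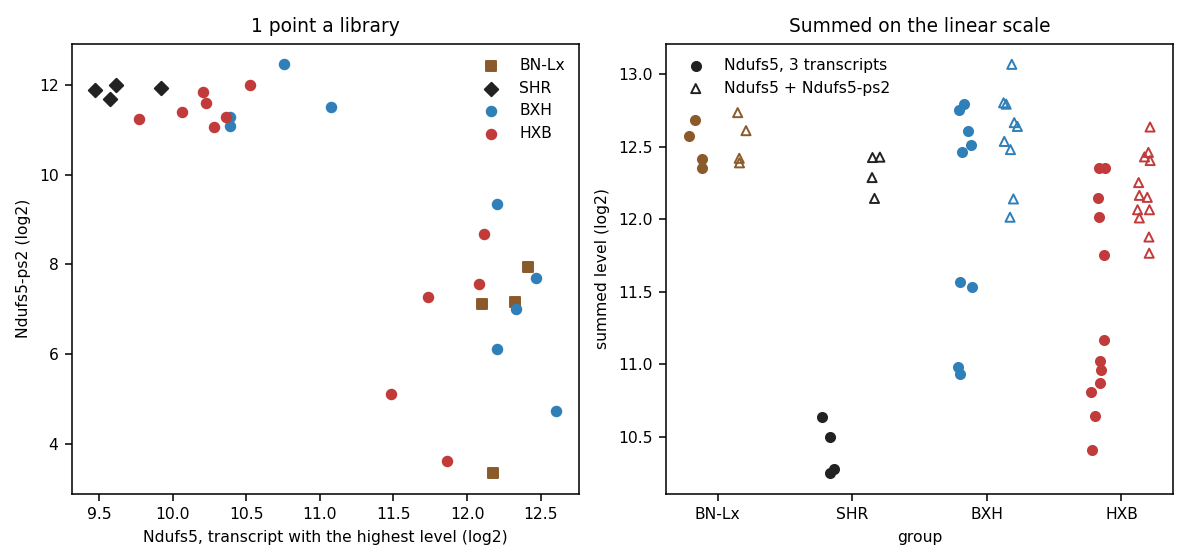
Left, level of Ndufs5-ps2 against level of the 588-base Ndufs5 transcript, the one with the highest mean level (both log2), 1 point a library, by group; right, the summed level (log2) of 3 Ndufs5 transcripts (filled) and of Ndufs5 with Ndufs5-ps2 (open). On the left the SHR libraries lie between 9.47 and 9.92 on the horizontal axis and the BN-Lx libraries between 12.10 and 12.42. The recombinant strains run from 9.77 to 12.61, and most lie between the ranges of the progenitors, among them BXH13 (11.08) and HXB29 (11.49). On the right the filled points of BN-Lx and SHR are apart and the open points overlap.

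Normal mixtures of 1 to 3 components were fitted to every RefSeq gene over the 21 strains, centred within batch. More than 1 mode was chosen for 5 of 45 members, against 15.6% of all genes. Ndufs5 had modes 0.82 apart on the log2 scale and a gain of 10.4 in the Bayesian information criterion over 1 mode. The others were Ndufs7 (modes 0.62 apart, gain 0.27), Ndufaf8, the partner of Ndufaf5 (0.35 apart, gain 1.65), Ndufs4 (0.25 apart, gain 0.15) and Ndufs1 (0.20 apart, gain 0.011). These 4 gains are small beside that of Ndufs5.

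Strain-to-strain spread was largest for Ndufs5 (SD 0.46 over 21 strains within batch), Ndufs7 (0.35), Ndufaf4 (0.31), Ndufa11, a membrane arm subunit (0.26), and Ndufs8 (0.25). It was smallest for Ndufa9, a subunit at the junction of the arms (0.08), Ndufa10 (0.10) and Ndufs1 (0.11). The median over members was 0.17, and over all genes 0.18. A pair of libraries from SHR animal 4 differed by a median of 0.09 over the members.

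The second comparison set the families of strains from the reciprocal crosses against each other, with batch as a covariate. On the deposited scale, 24 of 45 members were lower and 4 higher in HXB than in BXH strains. The background was 36.3% of all genes called, 17.8% lower and 18.5% higher. Scaled to the spike-ins, which moves all genes of a library by the same amount, 37 members were called and all were higher. The share of all genes called under that scaling is not given here, so this count has no background. Of 36 subunits 22 were lower and 2 higher, with a median difference of -0.20 against -0.01 for all genes. Of 8 assembly factors 2 were lower and 2 higher, with a median of -0.01, and Ndufa4 did not pass (-0.07).

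Membrane arm accessory subunits were lower in 15 of 20 and core matrix arm subunits in 5 of 7. Ndufc1, a small membrane arm subunit, ran from 12.36 to 12.81 with a median of 12.46 in the BXH strains and from 11.98 to 12.44 with a median of 12.14 in the HXB strains. The families overlapped little, and the difference was -0.37 (SE 0.05, adjusted p = 0.00031), the smallest p of all members. Ndufs7 ran from 12.74 to 13.61 with a median of 13.43 in the BXH strains and from 12.44 to 13.09 with a median of 12.79 in the HXB strains, and differed by -0.51 (SE 0.10, adjusted p = 0.000594). Ndufs8 ran from 13.48 to 14.10 with a median of 13.74 in the BXH strains and from 13.15 to 13.78 with a median of 13.42 in the HXB strains, and differed by -0.38 (SE 0.07, adjusted p = 0.000594). Both families overlapped in range for these core subunits. Ndufv1 differed by -0.33 (SE 0.06, adjusted p = 0.000365), and Ndufv3, an accessory subunit beside Ndufv1, by -0.38 (SE 0.06, adjusted p = 0.00035).

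Assembly factors went both ways. Ndufaf6 ran from 9.78 to 10.24 with a median of 9.93 in the BXH strains and from 9.59 to 9.83 with a median of 9.72 in the HXB strains, nearly without overlap, and differed by -0.29 (SE 0.05, adjusted p = 0.000415). Ndufaf3 also was lower, with a difference of -0.33 (SE 0.06, adjusted p = 0.000661). Ndufaf4 ran from 9.30 to 9.95 with a median of 9.68 in the BXH strains and from 9.78 to 10.58 with a median of 10.08 in the HXB strains. Most HXB strains were above most BXH strains, and the difference was 0.43 (SE 0.09, adjusted p = 0.00139). Ndufaf1 was higher in HXB, with a difference of 0.19 (SE 0.07, adjusted p = 0.0369). The subunits that were higher were Ndufb3 (0.26, SE 0.06, adjusted p = 0.003) and Ndufs4 (0.16, SE 0.06, adjusted p = 0.0284). Ndufs5 differed by -0.26 (SE 0.18, adjusted p = 0.265) and did not pass, with strains of both families in each of its modes.

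Within batches the values were as follows. In batch 3 alone (9 HXB against 6 BXH strains) 25 members were called, 22 of them lower, and 33 of 36 subunits had a lower mean in HXB. The share of all genes called in batch 3 is not given here. In batch 2 alone (3 against 3 strains) limma called 0 members and 0 of 19100 genes, with 5 members at an unadjusted p under 0.05, and 30 of 36 subunits had a lower mean. Ndufs7 differed by -0.24 in batch 2 and -0.63 in batch 3, and Ndufaf4 by 0.47 and 0.41.

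The short-minus-long measure and the spike-ins also differed between the families, and their part was not tested beyond the following fit. The measure was 0.53 to 0.87 in BXH strains and 0.26 to 0.64 in HXB strains, and the spike-in mean 6.78 to 7.93 and 6.63 to 7.01. Among other genes of the RefSeq table with a mean level over 8 (log2), 50.3% of those up to 1000 bases were lower in HXB (n = 531), and of those over 4000 bases 8.82% (n = 3107). With the measure as a covariate limma called 0 members, with 12 at an unadjusted p under 0.05, and 1 of 19100 genes, and the median difference of subunits was 0.016. Under that covariate Ndufs7 differed by -0.37 (adjusted p = 0.177), Ndufc1 by -0.28 (adjusted p = 0.165), Ndufaf4 by 0.41 and Ndufb3 by 0.28 (both with an adjusted p of 0.166), and none passed. Cardiomyocyte markers were lower in HXB in 4 of 9 and higher in 1, macrophage markers lower in 3 of 5, and endothelial markers lower in 1 and higher in 2 of 6.

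**Figure D4:**
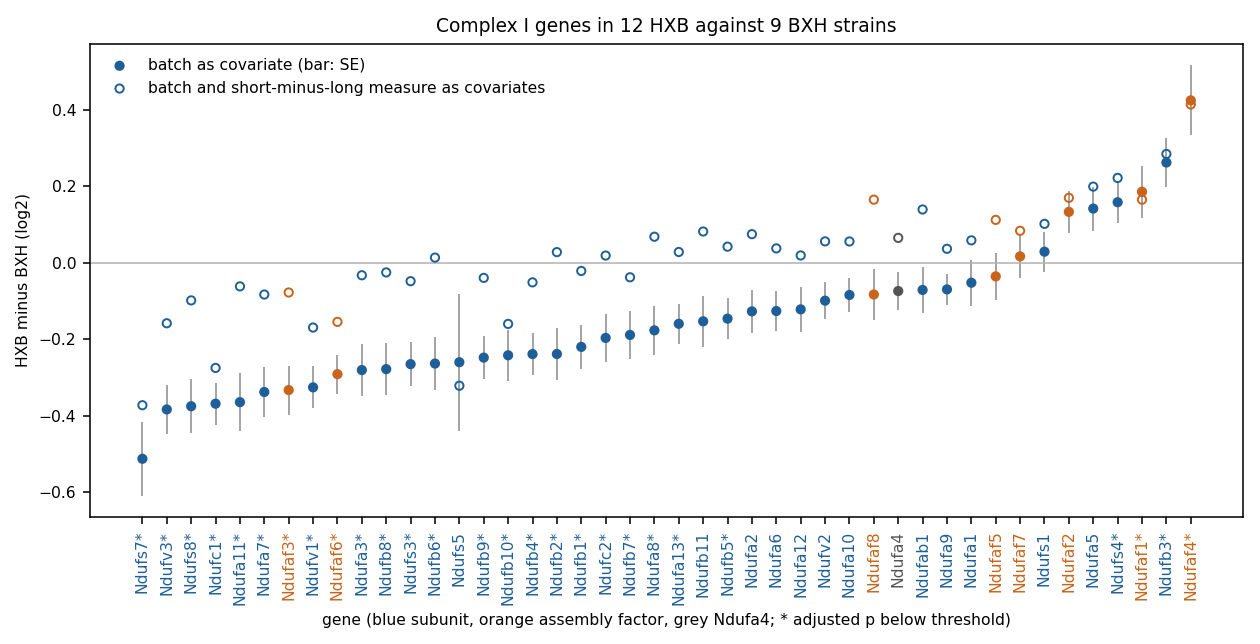
Difference of 12 HXB from 9 BXH strains (log2) for 44 complex I genes with batch as covariate (filled, bars SE) and with the short-minus-long measure added (open); subunits blue, assembly factors orange, Ndufa4 grey, * for an adjusted p under 0.05. The filled points are mostly below 0 on the deposited scale, the open points lie around 0, and scaling to the spike-ins turns the median of the subunits from -0.20 to 0.36.

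Most members followed the mean of the subunits over the strains. The Spearman correlation of a member with the mean of the other subunits over 21 strains, centred within batch, had a median of 0.75, was over 0.8 for 16 of 36 subunits and 2 of 8 assembly factors, and was below 0 for 7 members. The members below 0 were Ndufaf4 (-0.67), Ndufb3 (-0.47), Ndufaf1 (-0.41), Ndufs4 (-0.34), Ndufaf2 (-0.31), Ndufa5 (-0.23) and Ndufs1 (-0.04). They include the 4 members that were higher in HXB strains. Values were not centred within family, so this overlap is partly built in. All points share their library, so these correlations are descriptions.

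Over the same strains the mean of the 36 subunits had a Pearson r of 0.97 and a Spearman rho of 0.99 with the short-minus-long measure, 0.66 and 0.74 with the spike-in mean, 0.71 and 0.66 with the cardiomyocyte marker mean, and 0.45 and 0.27 with the mean of the assembly factors. Within batches r was 0.94 in batch 2 and 0.98 in batch 3 for the short-minus-long measure, 0.41 and 0.69 for the spike-ins, 0.49 and 0.75 for the markers, and -0.05 and 0.50 for the assembly factors. Without the 2 strains farthest from the median of each measure r was 0.96, 0.71, 0.60 and 0.38. These 4 relations carry no p, since the members were chosen with earlier results known. The 5 genes outside the members whose values went most closely with the subunit mean were Nudt8, Wdr83os, Lage3, Polr2l and Stoml2, with r from 0.97 to 0.98 over 21 strains.

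**Figure D5:**
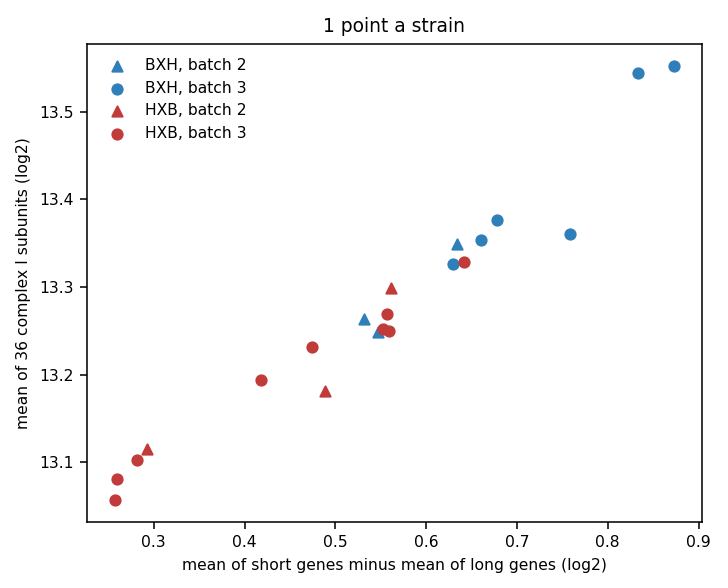
Mean of 36 complex I subunits (log2, vertical axis) against the mean of short genes minus the mean of long genes (log2, horizontal axis, members left out), 1 point a strain, by family and batch. The points rise along 1 line (r 0.97, n = 21), with HXB strains between 0.26 and 0.64 and BXH strains between 0.53 and 0.87 on the horizontal axis.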

How the data were processed

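Left ventricle RNA, depleted of ribosomal RNA (Illumina TruSeq Stranded TotalRNA kit), was given for 31 samples. The deposited log2 values were made by the authors; per the labels, their processing notes list DESeq2 (no version), RSEM 1.3.1, cutadapt 1.9.1, StringTie 1.3.5, Bowtie2 2.3.4.3 and HISAT2 2.1.0, with build rn7, and the role of each is not given in the sources used here. No counts were given, so depth is unknown. SHR was compared with BN-Lx in the assembled gene and transcript tables (4 animals each, batch 1) and HXB with BXH in the RefSeq table (batch as covariate), with limma 3.58.1 in R 4.3.3 (intensity trend, two-sided, Benjamini-Hochberg over the whole table, threshold 0.05), without a filter on low values. Modes came from mclust 6.1.1 with equal variances. Scripts were tested on simulated data. A symbol's assembled gene was the one carrying that name alone with the highest mean.

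Members and lists were chosen with earlier results of these data known. Named are, for SHR against BN-Lx, the 12 members with the smallest p and all assembly factors; for HXB against BXH the 6 with the smallest p; members with more than 1 mode; the 5 largest and 3 smallest strain SDs; the 3 highest and lowest levels; the 2 called genes of each list with the smallest p; and the 5 genes most like the subunit mean. Scaling to the mean spike-in value and the short-minus-long covariate were added after seeing the data, as were Ndufs5-ps2 and the other genes named outside this rule. Alternatives were quantile normalization, a filter at a mean of 5, no trend, a replicate block, the strains as further groups, each library left out, single batches, and other tables. Same-numbered BN-Lx and SHR animals did not deviate together (correlations 0.19, -0.38, -0.17 and 0.15), so the numbers were not taken as pairs. Later libraries of SHR animal 4 entered no test. The values of 1 member, counted in the totals, are not reported here.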

Additional observations from a re-analysis of the deposited data

How the results depend on the processing

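Of the 14 members lower in SHR, 14 also were called with the replicate block (15 called), 14 with a filter at a mean of 5 (16 called), and 11 with quantile normalization (13 called), and leaving out single animals gave 10 to 18. Among all genes, 5437 of 46063 were called with the block, 4975 of 19565 with the filter and 6655 of 46063 with quantile normalization. Without single animals 4377 to 6114 of 46063 were called. The count of members moved to 3 without the intensity trend and 7 with the strains as further groups. It was 6 with the short-minus-long covariate and 5 scaled to the spike-ins. Of all 46063 genes, 4911, 3916, 4007 and 18446 were called in these fits, in that order. Scaled to the spike-ins all 5 members were higher, and the median of subunits reversed to 0.43. Under the short-minus-long covariate Ndufaf3 (0.032) and Ndufaf7 (0.12) reversed, both far from the threshold, and Ndufaf4 (0.45) became a call. For the 14 transcripts the count was 4 with the replicate block, 4 without the trend, and 5 to 12 when single animals were left out. Of all 91969 transcripts, 1893 were called with the block and 4617 without the trend. That number is not given here for the fits without single animals. The replicate numbers share no stated litter or day; the block changed no other count by over 1.5 times. For HXB against BXH the 28 called members became 0 in batch 2 alone and 0 with the short-minus-long covariate, and the median of subunits reversed to 0.016 with that covariate and to 0.36 scaled to the spike-ins; no batch term, no trend, quantile normalization, the filter, batch 3 alone and both other tables gave 25 to 31 of the members each table held. The share of all genes called in the fits that gave 25 to 31 is not given here. Members with more than 1 mode were 7 uncentred, 4 with unequal variances and 1 (Ndufs7) of 33 in the assembled table, which has no Ndufs5 gene of its own. The causes were not tested. The progenitor comparison in the earlier (v6) assembled table was not run. With no counts given, the depth that limits low transcripts is unknown.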
